A study of Mus musculus with 15 samples.

Results

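This report compares UCP1-positive adipocytes of inguinal fat from mice given roscovitine (RS) with UCP1-positive brown adipocytes of untreated mice (BAT). Roscovitine is a small-molecule inhibitor of cyclin-dependent kinases, CDK5 among them, and the labels call the RS cells "Brite adipocyte", another name for beige fat cells. All arrays given here with these labels were taken, 2 RS arrays (RS3 and RS4) and 3 BAT arrays (BAT1, BAT3 and BAT4), which make 5 of the 15 arrays analysed, and all 25206 probe sets were tested. The other arrays held UCP1-positive inguinal cells after CL316243 (CL, 3 arrays), an agonist of beta-adrenergic receptors, or after rosiglitazone (RG, 3 arrays), which activates PPARG, the nuclear receptor that directs fat cell differentiation, and UCP1-negative white inguinal adipocytes of untreated mice (WAT, 4 arrays). All cells were sorted by flow cytometry from mice of 8 to 10 weeks that the labels call UCP1/Tomato, and 2 ng of total RNA per sample was amplified. The gate is labelled UCP1(GFP), so which reporter set it is not settled. Dose, treatment time and sex are not stated in the labels, and neither is whether arrays came from separate animals, so p-values measure only the spread between these samples, which may be technical. Any further RS array was not analysed here, so each RS value rests on 2 arrays. The series has no untreated UCP1-positive inguinal cells among its groups, so in RS against BAT the fat depot and the treatment cannot be told apart.

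Brown and beige adipocytes burn fatty acids to make heat. Their mitochondria hold UCP1, which lets protons return across the inner membrane without making ATP, and noradrenaline drives the process through beta-adrenergic receptors and cAMP. Classical brown fat cells arise from a muscle-like lineage and keep the position genes of the upper trunk, whereas beige cells appear within white fat and keep the position genes of that depot. Both share a programme set by PPARG, PRDM16 and the PGC-1 coactivators. CDK5 phosphorylates PPARG in fat, which is the known link between roscovitine and this programme.

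The arrays were checked first. Array medians lay between 3.39 and 3.47 on the log2 scale in the 5 arrays, and the 10th percentiles between 1.97 and 2.15, so values near these levels carry little signal. Across probe sets the RS arrays correlated with each other at 0.945, the BAT arrays at 0.955 to 0.966, and RS with BAT at 0.930 to 0.945. RS correlated with RG at 0.943 to 0.961, with CL at 0.927 to 0.956 and with WAT at 0.884 to 0.949. The 2 RS arrays were thus no closer to each other than to some arrays of other groups. The cells of both groups carried the genes of mature adipocytes: the mean level of 25 such genes was 9.43 in RS3 and 9.32 in RS4 and 9.04 to 9.09 in BAT. RS3 stood apart in 2 respects. Its mean level over 20 endothelial markers was 4.02, against 5.98 in RS4 and 5.59 to 6.59 in BAT. Xist, the RNA that coats the inactive X chromosome of female cells, stood at 7.83 in RS3, the highest of the 15 arrays, against 3.95 in RS4 and 1.77 to 3.13 in BAT. The Y-linked genes Eif2s3y (2.55), Kdm5d (2.51) and Uty (3.13) were at their lowest of the 15 arrays in RS3. Results are given with and without RS3 where it decides them.

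**Figure D1:**
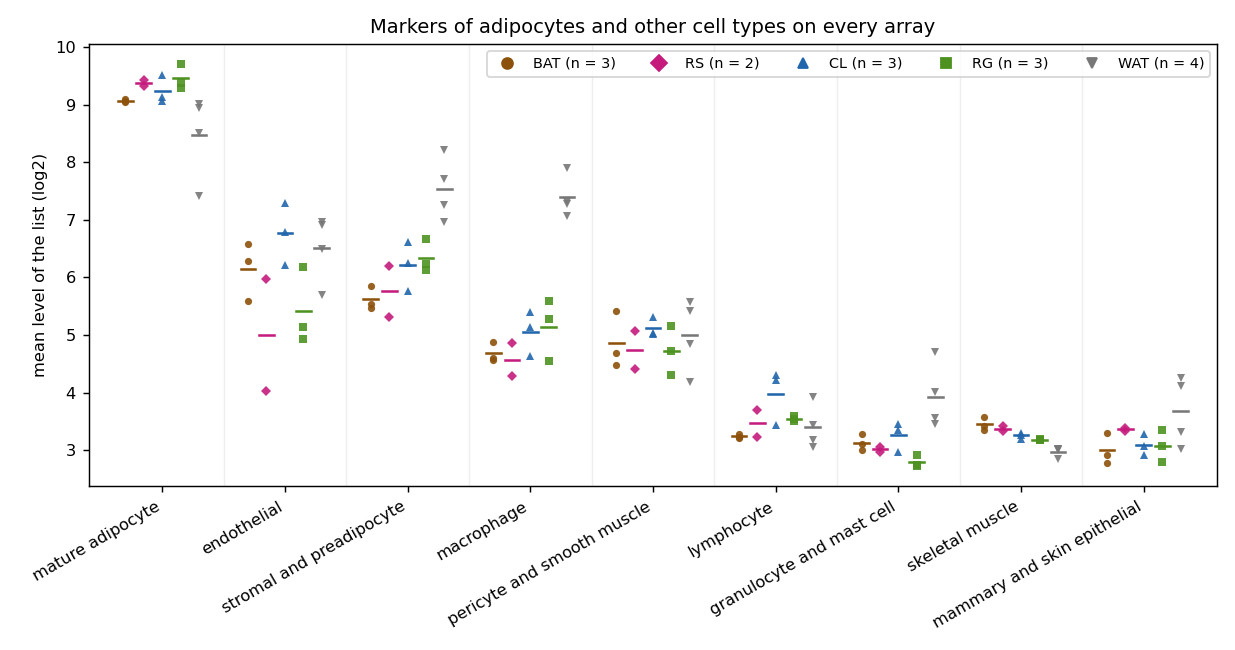
Mean log2 level of 9 marker lists on each array, by group (points are arrays, lines are group means). RS and BAT share high mature adipocyte levels and low macrophage levels, and RS3 lies at 4.02 in endothelial markers, below every BAT array.

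RS cells differed from BAT cells in 925 of 25206 probe sets (3.67%), at an adjusted p under 0.05 by limma, with p-values adjusted by the Benjamini-Hochberg method across the whole table. Of these, 591 were lower in RS (2.34%) and 334 higher (1.33%). The count of 925 fell to 60 with only the RS and BAT arrays fitted. It was 128 with array weights and 72 with the replicate numbers as a block, so most calls depend on the fit. The decreases were led by genes of heat production and fatty acid use, among them Elovl3, Ucp1, Slc27a2, Acot11 and Cox7a1, and the increases by genes of varied function, among them Alb, Cmklr1, Hvcn1 and Bmp2. Differences were larger than 2 log2 units in 23 of the genes that were lower and 20 of those that were higher. The RS and BAT arrays did not overlap in any of the 925 probe sets called, and they did not overlap in 30.5% of all probe sets. Of the 925, 308 had a mean over 5 across the 5 arrays, 188 lower and 120 higher. The median difference over all probe sets was -0.045, and 5142 of the 25206 had an unadjusted p under 0.05. Higher calls made up 36.1% of the 925, 42.5% with array medians set to 0, 45.7% after quantile normalization and 53.2% without RS4, so the balance of directions depends on scaling and on the array. Without RS3, 370 probe sets were called, without BAT3 475, and without both RS3 and WAT4, an exclusion chosen after the data were seen, 496.

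The uncoupling gene itself was lower in RS, although both groups had been gated on UCP1. Ucp1 stood at 6.05 in RS3 and 8.43 in RS4, against 11.18, 11.22 and 10.22 in BAT1, BAT3 and BAT4. Both RS arrays lay below every BAT array, and the RS arrays lay further from each other than the BAT arrays did. The RS mean was 7.24 ± 1.68 (SD, n = 2) and the BAT mean 10.87 ± 0.57 (SD, n = 3), a 12.4-fold difference (log2 difference -3.63 ± 0.56, SE, 95% interval -4.82 to -2.45, adjusted p = 0.00355). Without RS3 the log2 difference was -2.44 (adjusted p = 0.0329) and without RS4 it was -4.82. In these bulk samples, fewer cells with the transcript and less transcript per cell cannot be told apart. The mean level of Ucp1 was 10.41 in CL, 8.18 in RG and 4.02 in WAT, so RS lay between WAT and RG in the order of means. RS4 lay within the RG arrays, at 7.69 to 8.88, and RS3 lay below them. The difference of RS from RG did not pass by limma (log2 difference -0.94, adjusted p = 0.390).

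Several enzymes that handle fatty acids and coenzyme A were among the 12 largest decreases. Elovl3, an elongase of very long fatty acids, stood at 4.67 and 5.71 in RS against 9.47, 9.42 and 8.43 in BAT. It was 15.1-fold lower (log2 difference -3.92 ± 0.42, SE, adjusted p = 0.00031). Slc27a2, which takes up and activates very long fatty acids, stood at 3.97 and 3.42 in RS against 7.35, 7.44 and 6.89 in BAT, and was 11.6-fold lower (adjusted p = 0.000553). Both RS arrays were low in these genes, with RS3 the lower in Elovl3 and the higher in Slc27a2. Acsl5, an acyl-CoA synthetase, stood at 5.84 and 5.25 in RS against 8.65, 8.48 and 8.07 in BAT and was 7.24-fold lower (adjusted p = 1.08e-05). Acot11, which splits acyl-CoA back to free fatty acid, stood at 4.52 and 4.29 against 7.47, 7.85 and 7.21 and was 8.60-fold lower (adjusted p = 3.43e-05). Pank1, a pantothenate kinase at the start of coenzyme A synthesis, stood at 5.50 and 5.44 against 7.86, 8.12 and 7.73 and was 5.40-fold lower (adjusted p = 0.000553). RG also lay below BAT, by log2 differences of -3.69 in Elovl3, -3.70 in Slc27a2, -3.34 in Acsl5, -3.39 in Acot11 and -2.19 in Pank1. For CL these differences were -0.20, -1.51, -1.36, -1.39 and -1.18, so the decreases were not particular to RS. In each of these genes the RS arrays lay at least 2 log2 units below the lowest BAT array, and each kept its call without each of the 5 arrays in turn.

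Other large decreases lay outside fatty acid activation. Cox7a1, a subunit of cytochrome c oxidase typical of muscle and brown fat, stood at 6.71 and 7.59 in RS against 10.26, 10.48 and 9.31 in BAT (7.29-fold lower, adjusted p = 0.00139). Kng2, a kininogen from which bradykinin is cut, stood at 2.74 and 2.69 in RS, below the array medians, against 6.18, 5.93 and 5.54 in BAT (8.99-fold lower, adjusted p = 2.25e-05). Its mean was 2.84 in CL, 2.52 in RG and 2.28 in WAT, so of the 5 group means only that of BAT lay above the array medians. Phospho1, a phosphatase of phosphocholine, and Alpl, the tissue-nonspecific alkaline phosphatase, were both low in RS: Phospho1 at 4.79 and 5.07 against 8.11, 7.91 and 7.75 (7.96-fold lower, adjusted p = 5.57e-05). Alpl stood at 3.26 and 3.30 against 5.64, 5.81 and 6.07 (5.90-fold lower, adjusted p = 3.43e-05). Clic5, an intracellular chloride channel protein, was 5.73-fold lower (adjusted p = 0.00188). These genes kept their calls without each of the 5 arrays in turn. Pitpnc1, which carries phosphatidylinositol between membranes, completed the 12 largest decreases at 3.54 and 5.67 in RS against 6.48, 7.15 and 7.29 in BAT (5.16-fold lower, adjusted p = 0.0272). Its call was lost without RS3, BAT3 or BAT4, with adjusted p-values up to 0.219.

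**Figure D2:**
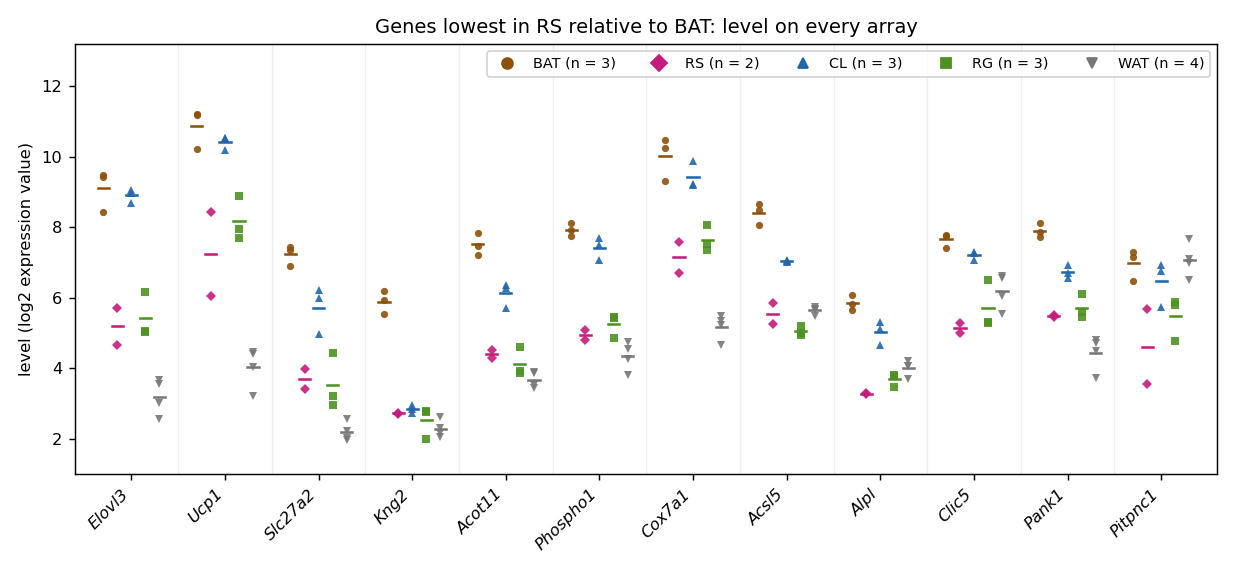
Log2 level on each array of the 12 named genes with the largest decrease in RS relative to BAT, for all 5 groups (points are arrays, lines are group means). RS arrays lie below all BAT arrays in each gene, with Ucp1 at 6.05 and 8.43 in RS and 10.22 to 11.22 in BAT.

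As a list, 26 measured genes of the thermogenic core held 11 that fell and 0 that rose, against 2.34% lower and 1.33% higher over all probe sets. The 11 include Ucp1, Elovl3, Slc27a2, Acot11, Cox7a1 and Pank1, described above. The list was chosen with earlier results of these data known, so its count is no separate support. The median log2 difference was -1.23, with values from -3.92 to 0.03. The mean level of the list was 5.84 in RS3 and 5.83 in RS4, against 7.10 to 7.50 in BAT, 6.72 to 7.02 in CL, 5.75 to 6.42 in RG and 4.14 to 4.90 in WAT. The 2 RS arrays thus had nearly the same mean over the list although they differed in Ucp1. Without RS3 the median of the list was -1.40. Besides the genes above, Ppara, the nuclear receptor that switches on fatty acid oxidation, fell by 2.10 log2 units (adjusted p = 0.00934, lost without RS3 at 0.0854). Plin5, which tethers lipid droplets to mitochondria, fell by 1.41 (adjusted p = 0.0132, lost without RS3 at 0.0644). Several well-known members did not pass the test. Cidea, a lipid droplet protein of brown fat, stood at 9.33 and 8.53 in RS against 10.57, 10.63 and 10.41 in BAT, with groups that did not overlap (log2 difference -1.61 ± 0.49, SE, adjusted p = 0.0805). Dio2, the deiodinase that makes active thyroid hormone, had a log2 difference of -1.02 (adjusted p = 0.172), with RS at 3.86 and 3.28 and BAT at 5.19, 4.73 and 3.84, so that the groups overlapped. Ppargc1a, the cold-induced PGC-1 coactivator, had -0.93 (adjusted p = 0.170), and Prdm16, a brown fate regulator, -0.16 (95% interval -0.64 to 0.33, adjusted p = 0.750).

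Mitochondrial genes lay lower in RS across their lists, and few of them passed the test. Over all probe sets, 2.34% were called lower and 1.33% higher. Of 22 genes of mitochondrial fatty acid oxidation, 5 fell and 0 rose, and all 22 had a difference below 0 (median -0.65); 3 fell without RS3 or without BAT3. Acaa2, the thiolase of the last step, stood at 8.62 and 8.77 in RS against 10.56, 10.63 and 10.22 in BAT and was 3.42-fold lower (adjusted p = 0.000836). Slc25a20, the carnitine carrier of the inner membrane, stood at 7.66 and 7.13 against 9.19, 9.18 and 8.91 and was 3.24-fold lower (adjusted p = 0.00231). Acss1, which activates acetate in the mitochondrion, was 3.63-fold lower (adjusted p = 0.00115). These 3 kept their calls without each array in turn. Etfdh, which passes electrons from fatty acid oxidation to ubiquinone, fell by 1.52 log2 units (adjusted p = 0.0253) and lost its call without RS3 or BAT3 (up to 0.139). In peroxisomes, 4 of 19 genes fell, Slc27a2 and 3 others. They were the thiolase Acaa1b (-1.68), the racemase Amacr (-1.40) and the fatty acid transporter Abcd3 (-1.18), each lost without at least 1 array, with adjusted p-values up to 0.137. The peroxisomal count was 2 without RS3, RS4, BAT1 or BAT3.

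The TCA cycle and respiratory chain showed smaller differences, mostly of the same sign. Their counts stand against 2.34% lower and 1.33% higher over all probe sets. Of 24 TCA cycle genes 3 fell and 0 rose (median -0.66), and of 34 complex I genes 4 fell and 0 rose, with all 34 differences below 0 (median -0.58). In complexes II and III 2 of 13 fell (median -0.68), in cytochrome c oxidase 2 of 16 (median -0.34) and in ATP synthase 1 of 12 (median -0.36). Ndufab1, the acyl carrier subunit of complex I, stood at 6.65 and 6.62 in RS against 8.20, 8.36 and 8.09 in BAT (2.99-fold lower, adjusted p = 0.0046) and kept its call without each array in turn. Ndufs8, an iron-sulphur subunit, fell by 1.37, Sdhd, a membrane anchor of succinate dehydrogenase, by 1.28, Suclg1, a subunit of succinyl-CoA ligase, by 1.26, and Uqcrc1, a core subunit of complex III, by 0.90 log2 units. Each of these 4 lost its call without at least 1 array, with adjusted p-values up to 0.161. Without RS3, 1 complex I gene, 0 TCA cycle genes and 0 genes of complexes II and III were called, and without RS4 the counts were 2, 2 and 1. Without BAT1 and without BAT3 they were 1 each. With only the groups compared, and with array weights, they were 1, 0 and 0. The count in cytochrome c oxidase was 1 and that in ATP synthase 0 without any of RS3, RS4, BAT1 and BAT3. The mean level of complex I was 8.15 and 8.21 in RS, below the 8.53 to 8.92 of BAT and near the 8.18 to 8.48 of RG, with CL at 8.45 to 8.84 and WAT at 7.24 to 8.02.

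The mitochondrial ribosome translates the proteins encoded in mitochondrial DNA. Of its 76 genes 8 were lower and 0 higher (median -0.39), against 2.34% lower and 1.33% higher over all probe sets. Of the 76 differences 69 were below 0. Mrpl34 stood at 6.42 and 6.68 in RS against 8.02, 8.14 and 7.37 in BAT (2.45-fold lower, adjusted p = 0.0118) and lost its call without RS3 (0.0802). Mrpl51 stood at 5.30 and 4.38 against 5.93, 6.32 and 5.93 (2.33-fold lower, adjusted p = 0.0244) and lost its call without RS4 or BAT3. The count of the list was 3 without RS3, 2 without RS4, 3 without BAT1, 2 without BAT3 and 11 without BAT4, and 0 with only the groups compared or with array weights, so most single calls here rest on particular arrays. Among 17 regulators of mitochondrial biogenesis 5 fell and 0 rose (3 without RS3). Ppargc1b, a PGC-1 coactivator, stood at 5.15 and 4.95 in RS against 6.47, 6.19 and 6.37 in BAT (2.45-fold lower, adjusted p = 0.00779) and kept its call without each array in turn. Gabpa, the DNA-binding subunit of the ETS factor NRF2 that switches on many mitochondrial genes, stood at 4.77 and 4.82 against 5.78, 5.81 and 5.47 (1.86-fold lower, adjusted p = 0.011, and 0.0587 without RS3). Esrrb, an oestrogen-related receptor, fell by 1.35 log2 units (adjusted p = 0.00542) at levels of 1.58 and 1.39 in RS, below the 10th percentiles of the arrays. The other 2 were Ppara and Twnk, the helicase of mitochondrial DNA.

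**Figure D3:**
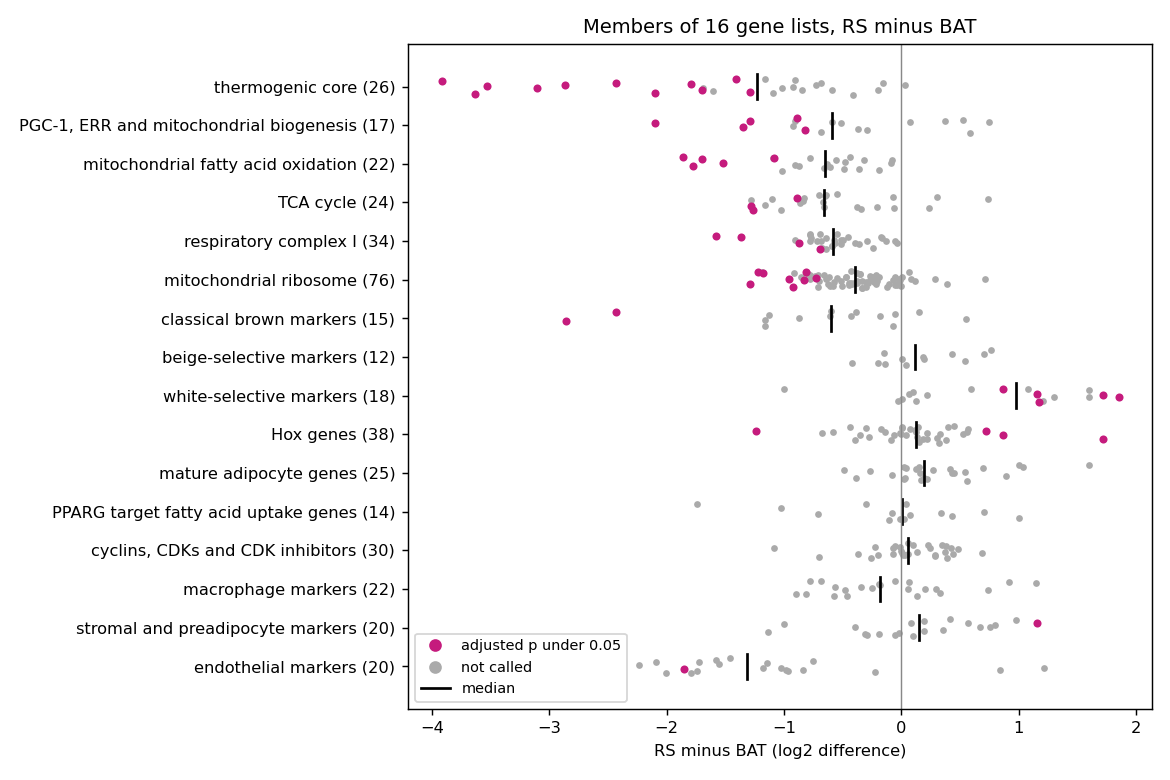
RS minus BAT log2 differences of the members of 16 gene lists (number measured in brackets); coloured points passed at an adjusted p under 0.05 and the bar is the median of the list. The thermogenic list has a median of -1.23, the mitochondrial lists lie below 0, and the white-selective list has a median of 0.97.

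Promoters of genes that were lower in RS were read for 2 short motifs, because the ETS factor Gabpa and the nuclear receptor Ppara fell in RS. The windows were the 250 bases before the annotated start of each gene in the RefSeq promoter table of mouse build GRCm38.p6, searched on both strands, and a gene can have several starts. CCGGAAGT is the core element bound by ETS factors such as GABPA. It was in 21 of 501 windows of genes lower in RS (4.19%) and in 1 of 270 windows of genes higher in RS (0.37%). Over the 17452 tested genes matched by Entrez gene number, it was in 802 of 21141 windows (3.79%). In the mitochondrial lists it was in 12 of 184 windows (6.52%), and in 3 of the 28 windows of their members that were lower in RS (10.7%). Those 3 were Slc25a20, Mrpl51 and Mrpl48, a further subunit of the mitochondrial ribosome, and they are shown with Twnk because all of them fell in RS. The log2 difference was -0.73 for Mrpl48 (adjusted p = 0.0455) and -0.82 for Twnk (adjusted p = 0.0279). Capitals mark the motif or its complement, and each sequence runs 5′ to 3′ on the strand of the gene.
Slc25a20 (chr9:108662027-108662094, plus strand): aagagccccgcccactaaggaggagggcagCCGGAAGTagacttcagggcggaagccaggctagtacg
Mrpl51 (chr6:125192080-125192147, plus strand): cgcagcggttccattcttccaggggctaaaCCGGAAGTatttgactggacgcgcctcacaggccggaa
Mrpl48 (chr7:100583131-100583195, minus strand): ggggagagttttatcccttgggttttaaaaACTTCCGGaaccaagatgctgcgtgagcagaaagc
Twnk (chr19:45006417-45006484, plus strand): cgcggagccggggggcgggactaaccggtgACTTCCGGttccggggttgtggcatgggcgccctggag
All of these stretches lie upstream of the start in the gene's promoter. The motif began 79 bases before the start in Slc25a20, 90 in Mrpl51, 35 in Mrpl48 and 111 in Twnk.

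AGGTCA is the half-site that nuclear receptors such as PPARA and PPARG recognise. It was in 75 of 501 windows of genes lower in RS (15%), 30 of 270 of genes higher in RS (11.1%) and 2693 of 21141 of all genes tested (12.7%). In the mitochondrial lists it was in 24 of 184 windows (13.0%), and in 1 of the 28 windows of their members that were lower in RS (3.57%). Elovl3 was not matched in the promoter table. Of the other 11 of the largest decreases, Ucp1, Slc27a2, Kng2, Alpl and Clic5 held it, and the first 3 of these are shown in the same build and layout, with the half-site or its complement in capitals.
Ucp1 (chr8:83290304-83290347, plus strand): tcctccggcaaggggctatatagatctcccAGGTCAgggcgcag
Slc27a2 (chr2:126552774-126552839, plus strand): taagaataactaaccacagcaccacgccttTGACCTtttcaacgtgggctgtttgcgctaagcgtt
Kng2 (chr16:23029122-23029187, minus strand): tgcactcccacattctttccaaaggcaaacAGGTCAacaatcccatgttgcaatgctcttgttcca
A match gives letters in a window and not a bound site.

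Genes that record the position of a fat depot differed in a few members. Of 38 Hox genes 3 rose and 1 fell, against 1.33% higher and 2.34% lower over all probe sets, and with only the groups compared or with array weights none passed by limma. Hoxc8 stood at 5.88 and 6.69 in RS against 4.97, 4.93 and 3.79 in BAT (3.30-fold higher, adjusted p = 0.0244), with 6.47 in CL, 7.13 in RG and 5.93 in WAT as means. Hoxc10 stood at 4.80 and 4.84 against 4.19, 3.81 and 3.85 (1.83-fold higher, adjusted p = 0.0137), and its means in the 3 other inguinal groups were 4.79 to 5.08. In both genes the RS mean lay within the range of the means of the 3 other inguinal groups, all of which lay above BAT. Hoxa5 was lower in RS, at 2.47 and 3.48 against 3.98, 4.65 and 4.02 (2.37-fold lower, adjusted p = 0.0306). Hoxa10 was higher by 0.72 log2 units (adjusted p = 0.0467), a call lost without RS3, RS4, BAT1 or BAT3 at up to 0.163. Without RS3 1 Hox gene rose and 0 fell, and without RS4 1 rose and 1 fell. The call of Hoxc8 was lost without RS4 (adjusted p = 0.128) or BAT4, that of Hoxc10 without RS3 (0.0585), and that of Hoxa5 without RS3 (0.232) or BAT3. Of 26 other position factors, 1 fell: Tbx5, at 3.80 and 3.70 in RS against 5.12, 4.68 and 5.54 in BAT (2.57-fold lower, adjusted p = 0.0345), a call lost without RS3, RS4, BAT1 or BAT4. Tbx15 (log2 difference 1.26, adjusted p = 0.0787) and Hoxc9 (0.00, 95% interval -0.38 to 0.39, adjusted p = 0.995) did not pass. Hoxc9 lay below the array medians in all 5 arrays.

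**Figure D4:**
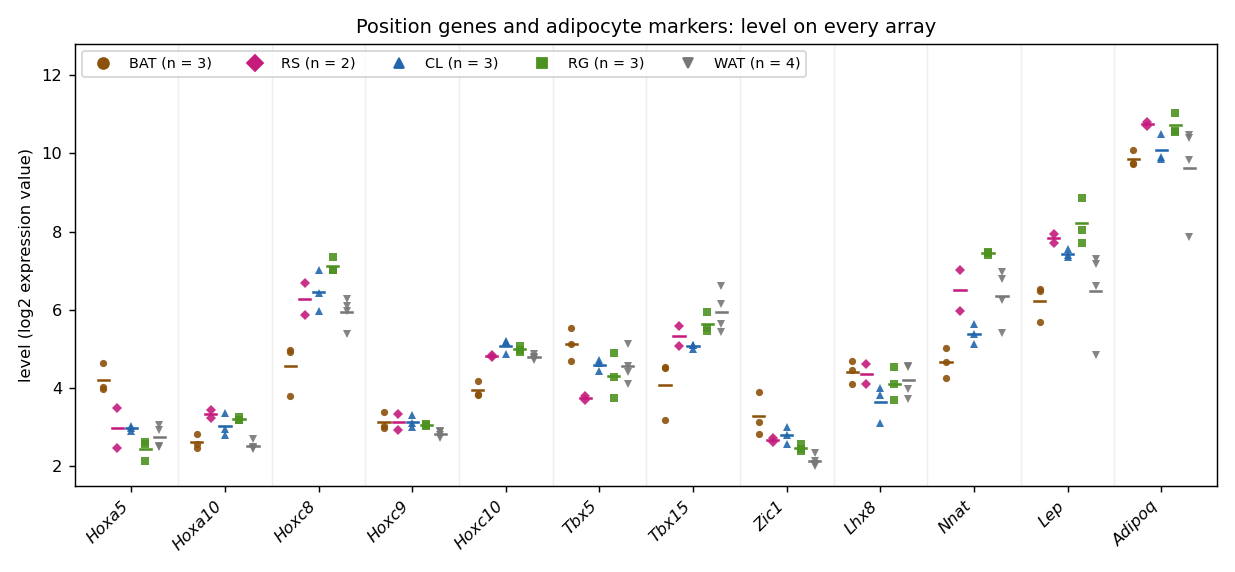
Log2 level on each array of position genes and adipocyte markers, for all 5 groups (points are arrays, lines are group means). Hoxc8 and Hoxc10 lie higher in both RS arrays than in the BAT arrays, Hoxa5 and Tbx5 lie lower, and Hoxc9 overlaps.

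Markers used to name adipocyte types gave different counts, against 2.34% lower and 1.33% higher over all probe sets. Of 15 classical brown markers 2 fell, Acsl5 and Pank1 (median -0.60), and both are enzymes of fatty acid and coenzyme A use. Zic1 (log2 difference -0.61, adjusted p = 0.187) and Lhx8 (-0.05, adjusted p = 0.952), transcription factors of brown fat, did not pass, and Zic1 lay at 2.62 and 2.73 in RS, below the array medians. Of 12 beige-selective markers none passed by limma (median 0.12). Over all probe sets 5142 of 25206 had an unadjusted p under 0.05, and of these 12 markers 1 did. It was Tbx1, at 4.12 and 3.87 in RS against 3.45, 3.07 and 3.16 in BAT (log2 difference 0.77, adjusted p = 0.0573). The beige-selective list had 3 members with a mean over 5, so little of it could be measured well. Of 18 white-selective markers 5 rose and 0 fell, with a median of 0.97, and 3 rose without RS4. With array weights 1 of the 18 rose, and with only the groups compared 0 rose. The mean level of the white-selective list was 6.01 and 6.05 in RS against 5.17 to 5.36 in BAT. It was 5.72 to 5.95 in CL, 6.08 to 6.31 in RG and 5.26 to 6.16 in WAT, so a level above BAT was not particular to RS. Nnat, an imprinted membrane protein, stood at 5.98 and 7.03 in RS against 4.26, 4.67 and 5.03 in BAT (3.61-fold higher, adjusted p = 0.0199). Nrip1, a corepressor of oxidative genes, stood at 7.38 and 7.70 against 6.38, 6.60 and 6.12 (2.26-fold higher, adjusted p = 0.0108), and Dpt, a matrix protein, at 10.88 and 10.51 against 9.54, 9.65 and 9.42 (2.23-fold higher, adjusted p = 0.00429). Hoxc8 and Hoxc10, already counted among the Hox genes, are the other 2. Dpt kept its call without each array in turn, while Nrip1 lost it without RS4 (0.055) and Nnat without RS4, BAT1 or BAT3 (up to 0.123). Lep, which encodes leptin, stood at 7.95 and 7.72 in RS against 6.49, 6.54 and 5.68 in BAT without passing (log2 difference 1.60 ± 0.54, SE, adjusted p = 0.113). Adipoq (0.90, adjusted p = 0.376) and Pparg (0.03, 95% interval -0.41 to 0.46, adjusted p = 0.962) did not pass either.

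The largest increases in RS came from genes of several kinds. Cmklr1, the receptor of the adipokine chemerin, stood at 7.89 and 7.65 in RS against 4.23, 5.35 and 4.94 in BAT and was 7.62-fold higher (adjusted p = 0.000242). Rarres2, which encodes chemerin itself, stood at 8.82 and 8.85 against 7.99, 8.05 and 7.41 and was 2.03-fold higher (adjusted p = 0.0399). The receptor kept its call without each array in turn, and the ligand lost it without any 1 of them (adjusted p 0.0519 to 0.128). Hvcn1, a voltage-gated proton channel, stood at 6.58 and 6.13 against 4.14, 3.75 and 4.07 and was 5.16-fold higher (adjusted p = 0.00231). Slc2a13, a carrier of myo-inositol and protons, stood at 5.75 and 5.48 against 3.22, 3.24 and 3.87 and was 4.50-fold higher (adjusted p = 0.00167). Bmp2, a bone morphogenetic protein, stood at 4.68 and 4.76 against 3.08, 2.08 and 2.41 and was 4.58-fold higher (adjusted p = 0.00267). In these genes the RS arrays lay close together and well above BAT, and Hvcn1, Slc2a13 and Bmp2 also kept their calls without each array in turn.

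In the other 8 of the 12 largest increases, RS3 lay further above RS4 than it did in Cmklr1, Hvcn1 and Slc2a13. Bmp2 alone of the 12 was lower in RS3 than in RS4. Alb, which encodes albumin, stood at 7.34 in RS3 and 5.69 in RS4 against 3.47, 3.19 and 3.41 in BAT (8.93-fold higher, adjusted p = 0.00927). Vnn3, a vanin of the pantetheinase family, stood at 8.30 and 7.06 against 5.38, 5.10 and 4.86 (5.92-fold higher, adjusted p = 0.0247). Sdc2, a heparan sulphate proteoglycan, stood at 6.94 and 5.57 against 3.64, 4.58 and 3.90 (4.64-fold higher, adjusted p = 0.00817). Both RS arrays were above all BAT arrays in these 3, and each lost its call without RS3 (adjusted p 0.0929 for Alb, 0.169 for Vnn3, 0.0851 for Sdc2), and Vnn3 also without BAT3 or BAT4. Plod2, a lysyl hydroxylase of collagen, stood at 6.92 in RS3 and 4.43 in RS4 against 2.93 to 4.09 in BAT, and Spon1, a secreted matrix protein, at 6.88 and 4.29 against 3.14 to 3.59. Ccdc152 stood at 5.36 and 2.53 against 1.43 to 1.87, Apol6, of the apolipoprotein L family, at 7.30 and 6.67 against 4.54 to 5.05, and Xist at 7.83 and 3.95 against 1.77 to 3.13. The RS4 values of Plod2, Spon1, Ccdc152 and Xist lay within 1 log2 unit of the highest BAT array. Their adjusted p-values were 0.0335 to 0.0465, Apol6 included, and all 5 calls were lost without RS3, BAT1 or BAT3, at up to 0.357. The part that RS3 and its Xist level play in these 8 genes was not tested beyond that exclusion.

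**Figure D5:**
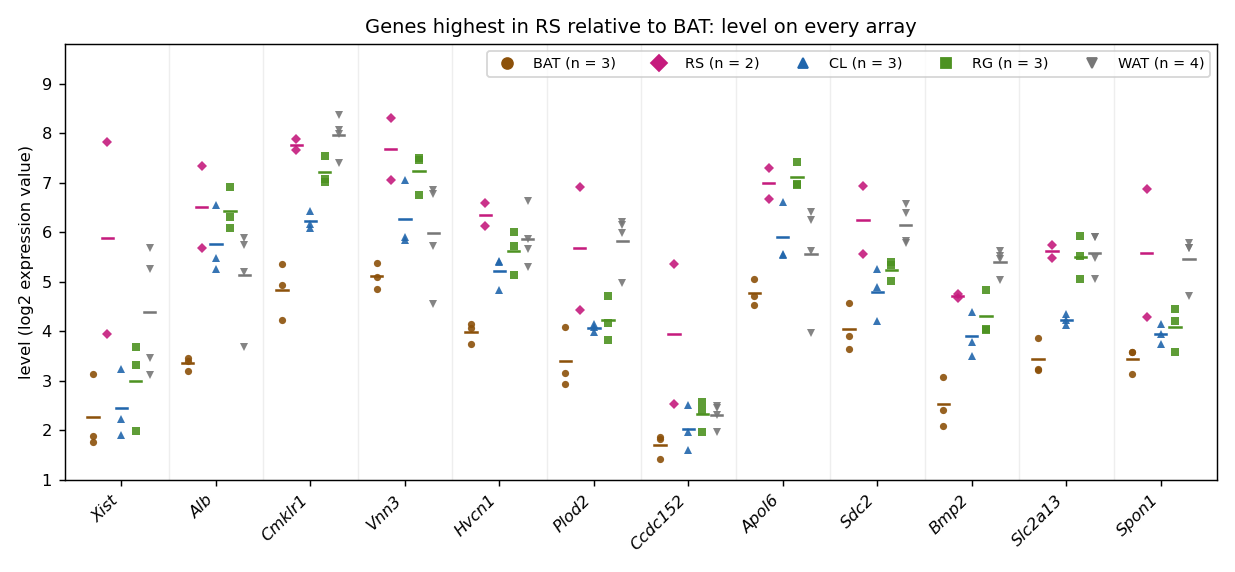
Log2 level on each array of the 12 named genes with the largest increase in RS relative to BAT, for all 5 groups (points are arrays, lines are group means). Cmklr1, Hvcn1, Bmp2 and Slc2a13 have close RS arrays, whereas Xist lies at 7.83 in RS3 and 3.95 in RS4.

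Signalling to and from the cells was described by several lists, to be read against 2.34% lower and 1.33% higher over all probe sets. Of 29 genes of adrenergic receptors and cAMP signalling 3 fell and 1 rose. Adcy3, an adenylyl cyclase that makes cAMP, stood at 7.37 and 5.78 in RS against 8.72, 8.64 and 7.96 in BAT (3.64-fold lower, adjusted p = 0.014), whereas Adcy5, another adenylyl cyclase, stood at 8.22 and 6.87 against 6.30, 5.91 and 5.96 (2.81-fold higher, adjusted p = 0.0278). RS3 was the higher RS array in both cyclases. The cAMP phosphodiesterases Pde4a (-1.29, adjusted p = 0.0118) and Pde4d (-0.97, adjusted p = 0.0189) fell as well. Adcy3 and Pde4d lost their calls without RS4 (0.0922 and 0.092), Pde4a without RS3 (0.0736), and Adcy5 without RS3 (0.219), BAT3 or BAT4. In creatine cycling, in which ATP is spent without work, 2 of 9 genes fell, and they are the phosphatases Phospho1 and Alpl of the largest decreases. In calcium cycling Itpr2, a calcium release channel of the endoplasmic reticulum, fell by 1.45 log2 units (adjusted p = 0.00211) and Atp2b4, a calcium pump of the plasma membrane, rose by 1.32 (adjusted p = 0.0268, lost without RS3 at 0.189 and without BAT1 or BAT3), of 16 genes. Itpr2 kept its call without each array in turn.

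Among secreted factors of brown fat, 2 of 21 fell and 2 rose. This count and those of the next lists stand against 2.34% lower and 1.33% higher over all probe sets. Besides Kng2, S100b, a calcium-binding protein that promotes nerve growth, fell by 1.61 log2 units (adjusted p = 0.0472), with BAT4 at 4.04 close to the RS arrays at 3.29 and 3.70. Its call was lost with array medians set to 0 and without RS3, RS4, BAT1 or BAT3. Igf1, insulin-like growth factor 1, stood at 7.86 and 7.43 in RS against 6.29, 6.43 and 6.36 in BAT (2.44-fold higher, adjusted p = 0.00355). Il6, the cytokine interleukin 6, stood at 4.90 and 5.36 against 3.67, 4.06 and 3.90 (2.38-fold higher, adjusted p = 0.00188), and both kept their calls without each array in turn. Of 14 white adipokines 3 rose, Nnat, Rarres2 and Lcn2, a lipocalin at 5.05 and 5.26 in RS against 4.03, 3.54 and 4.05 in BAT (2.43-fold higher, adjusted p = 0.0312), lost without RS3, RS4 or BAT3 at up to 0.108. Of 27 genes of the BMP pathway 2 rose and 2 fell. Bmp2 and its target Id3 (0.89, adjusted p = 0.0343) rose, whereas Bmp6 (-2.05, adjusted p = 0.0439) and the target Id1 (-1.33, adjusted p = 0.0447) fell. Bmp6 stood at 3.97 in RS3 and 5.34 in RS4 against 5.71, 6.82 and 7.58 in BAT. Without RS3, Bmp6, Id1 and Id3 lost their calls, with adjusted p-values of 0.268, 0.329 and 0.179, and all 3 also lost them without BAT3 or BAT4. RS3 is the array low in endothelial markers, and the part of these in the BMP genes was not tested.

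Genes of fat storage and glucose use held few calls, against 1.33% higher and 2.34% lower over all probe sets. None of 25 mature adipocyte genes, 14 PPARG targets of fatty acid uptake, 19 genes of triglyceride synthesis or 24 of branched-chain amino acid breakdown passed by limma. Unadjusted p-values under 0.05 numbered 3 in each list, against 5142 of 25206 over all probe sets. The mean level of the mature adipocyte list was 9.43 and 9.32 in RS against 9.04 to 9.09 in BAT. Of 21 genes of fatty acid synthesis 1 rose, the desaturase Fads1, at 8.39 and 7.22 in RS against 6.21, 6.01 and 6.43 in BAT (3.01-fold higher, adjusted p = 0.00565, and 0.0506 without RS3). Of 23 lipid droplet genes 2 fell, Plin5 and Plin3, another coat protein of droplets, which fell by 1.23 log2 units (adjusted p = 0.00583) and kept its call without each array in turn. Of 23 glycolytic genes 2 fell, Ldhb, a lactate dehydrogenase subunit (-1.03, adjusted p = 0.0146), and Pkm, pyruvate kinase (-0.95, adjusted p = 0.0326). In glycogen metabolism 1 of 19 fell, Ppp1r3b, which targets a phosphatase to glycogen (-1.54, adjusted p = 0.0312). Ldhb lost its call without RS3 (0.105), Ppp1r3b without RS4 (0.17), BAT1 or BAT3, and Pkm without RS4 (0.198), BAT1, BAT3 or BAT4.

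Genes of the drug's own target class, the cyclin-dependent kinases, held no call. None of 30 cyclins, CDKs and CDK inhibitors passed by limma (median 0.05). Of the 30, 5 had an unadjusted p under 0.05, against 5142 of 25206 over all probe sets. Cdk5 stood at 6.52 and 6.48 in RS against 6.08, 6.48 and 5.90 in BAT (log2 difference 0.35, 95% interval -0.10 to 0.79, adjusted p = 0.374). Cdk6, a kinase of the G1 phase, stood at 4.70 and 3.85 against 5.47, 5.11 and 5.51 without passing (-1.09, adjusted p = 0.0527, and 0.0403 without RS3). These arrays measure transcript levels and not kinase activity. Cks1b, a small regulatory subunit of these kinases that the list does not hold, was higher in RS, at 6.68 and 7.10 against 4.92, 5.70 and 4.45 (log2 difference 1.87, adjusted p = 0.00681). It kept its call without each array in turn and lost it with only the groups compared and with array weights. Of 39 proliferation genes 1 fell, Cenpa, the histone of centromeres, at 2.80 and 2.75 in RS against 3.56, 3.86 and 3.51 in BAT (1.83-fold lower, adjusted p = 0.0189), a call lost without RS3, RS4 or BAT3 at up to 0.0717. That is 1 gene of 39, close to the 2.34% lower over all probe sets. Only 2 of the 39 had a mean over 5 in the 5 arrays. Of 17 genes reported to follow the CDK5 phosphorylation of PPARG 1 rose, Rarres2, and 0 fell (median 0.33). Over all probe sets 1.33% were higher. Of 18 transcription factors of brown fate 1 rose, Irf4, at 6.98 and 6.05 in RS against 5.36, 4.96 and 5.09 in BAT (2.60-fold higher, adjusted p = 0.0129, and 0.116 without RS3). IRF4 is a partner of PGC-1alpha in brown fat and is also found in macrophages and lymphocytes. The mean level of 22 macrophage markers was 4.29 in RS3 and 4.85 in RS4 against 4.57 to 4.88 in BAT. For 18 lymphocyte markers it was 3.236 in RS3 and 3.705 in RS4 against 3.217 to 3.286 in BAT, and 0 of the 18 had a mean over 5. Whether such cells bear on the Irf4 level was not tested.

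Markers of other cell types bear on what the gates held. None of 22 macrophage, 18 lymphocyte, 20 granulocyte and mast cell, 12 pericyte and smooth muscle or 17 epithelial markers passed by limma. Their unadjusted p-values under 0.05 numbered 4, 1, 2, 0 and 2, against 5142 of 25206 over all probe sets. Of all probe sets, 1.33% were called higher and 2.34% lower. Of 20 stromal and preadipocyte markers 1 rose, Dpt, with a mean level of 5.32 and 6.20 in RS and 5.46 to 5.85 in BAT. Of 20 endothelial markers 1 fell, Egfl7, a secreted factor of vessels, at 4.15 in RS3 and 5.21 in RS4 against 6, 6.41 and 7.18 in BAT (3.60-fold lower, adjusted p = 0.0378), a call lost without RS3, BAT3 or BAT4. The median of the endothelial list was -1.32, and -0.25 without RS3. Kdr, a receptor of vascular growth factor, stood at 4.86 in RS3 and 6.96 in RS4 against 7.37, 8.36 and 8.70 in BAT (-2.23, adjusted p = 0.0555). Without RS4 the median of the endothelial list was -2.30, so its size depends on RS3. The list mean of RS4, 5.98, lay within the 5.59 to 6.59 of BAT, whereas that of RS3 was 4.02. Egfl7 and Kdr, in which RS4 also lay below every BAT array, were named for their small p-values. The RS and BAT arrays did not overlap in 7 of the 20 markers, against 30.5% of all probe sets. The mean level of the list was 4.93 to 6.19 in RG and 6.22 to 7.29 in CL. The median of the thermogenic list was -1.40 without RS3 and -1.15 without RS4. Whether endothelial levels bear on the thermogenic decreases was not tested.

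A direct test asked whether RS also differed from the other UCP1-positive inguinal cells, as RS minus the mean of CL and RG. It uses the same RS arrays, so it is no independent replicate of RS against BAT. It called 140 probe sets (0.555%), 79 lower in RS (0.313%) and 61 higher (0.242%), and 1 of the 26 thermogenic genes, Elovl3. Elovl3 lay 1.97 log2 units below the mean of CL and RG (difference -1.97, adjusted p = 0.036), with means of 5.19 in RS, 8.91 in CL and 5.42 in RG, so the RS mean lay nearer that of RG. Against CL alone, in which 1.27% of all probe sets were called and 0.797% were lower in RS, its difference was -3.72 (adjusted p = 0.00182), and against RG alone, in which 0.682% were called and 0.337% were lower, it was -0.23 (0.819). The call against both was lost without any 1 of 7 of the 8 RS, CL and RG arrays, RS4 being the exception, at up to 0.147. For Ucp1 the difference was -2.06 (adjusted p = 0.0667), with 7.24, 10.41 and 8.18, and for Cox7a1 -1.39 (adjusted p = 0.064), with 7.15, 9.43 and 7.65. Kng2 showed a difference of 0.03 (adjusted p = 0.958), Hoxc8 -0.51 (0.459) and Hoxc10 -0.21 (0.495). For Cmklr1 it was 1.05 (0.0786), with 7.77 in RS, 6.22 in CL and 7.21 in RG. The 12 largest increases had adjusted p-values of 0.0786 or more in this test. Gabpa passed it, at 4.80 in RS against 5.91 in CL, 5.51 in RG and 5.54 in WAT (-0.92, adjusted p = 0.0192, and 0.0629 without RS3). Cenpa passed at 2.78 in RS against 4.09 in CL and 3.62 in RG (-1.08, adjusted p = 0.0154), and it kept this call without each array in turn.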

How the data were processed

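The members and gene lists were chosen with earlier results of these data known. The deposited log2 values, 1 per probe set and array, were used as given; per the submitters' processing notes the authors used RMA, affy 1.36.1 and Affymetrix Expression Console, and the settings, probe-set definition and build are not given in the sources used here. Of 25206 probe sets, 23185 had 1 gene symbol through the platform annotation and 2021 had none. The files hold no detection calls; the number of arrays limits the precision. Limma 3.58.1 in R 4.3.3 (lmFit, contrasts.fit, eBayes; two-sided) fitted all 15 arrays with 1 mean per group and 10 residual degrees of freedom, so RS, with 2 arrays, was taken to vary like the other groups. Calls are at a Benjamini-Hochberg adjusted p under 0.05 over all probe sets. In simulated data the test of RS against BAT, run on 25206 probe sets, recovered 40% of changes of 1 log2 unit and 92% of 2. The simulated noise was independent, with the same SD in all 15 arrays for each probe set, and 200 probe sets were changed in RS. A wider spread between RS arrays, as in Ucp1, was not simulated, so these rates may be too high for the real comparison.

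Named genes were the 12 largest increases and decreases among called genes whose arrays did not overlap (predicted genes, receptor families, small RNAs and antigen-receptor segments left out), as many as 4 members per list, those with the smallest p, from 49 lists, and 21 markers, of which 20 were measured. Mrpl48 and Twnk were named for their promoters after their values were seen. Alternatives were array centring, quantile normalization, a mean over 5, only the groups compared, a trend with robust prior, array weights, a replicate block and leaving out arrays. Promoter sequences are from RefSeq, GRCm38.p6.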

Additional observations from a re-analysis of the deposited data

Results flagged for a closer look

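In 9 named genes RS differed from the mean of the other UCP1-positive inguinal groups, CL and RG, in the direct test by limma. That test called 0.555% of all probe sets. Most genes were named by RS against BAT, which uses the same RS arrays, so low RS values in them favour a pass here. The difference was -1.97 log2 units for Elovl3 (adjusted p = 0.036), -1.41 for Phospho1 (0.0294), -1.08 for Alpl (0.0315) and -1.39 for Gnao1 (0.00958), the alpha subunit of the G protein Go. It was -1.12 for Ampd3 (0.048), an AMP deaminase, -0.95 for Amacr (0.0487), -0.92 for Gabpa (0.0192) and -1.08 for Cenpa (0.0154). All 8 were also lower in RS than in BAT, but this followed from how they were named and is no further support. The remaining gene was Folr2, a folate receptor of macrophages, at -1.24 (0.0431), which did not pass in RS against BAT (-0.78, adjusted p = 0.134).

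Taken apart, the test against CL alone was passed by 8 of the 9, Amacr being the exception (-0.91, adjusted p = 0.0647), and the test against RG alone by Cenpa (-0.84, 0.0493). For Elovl3, Phospho1 and Alpl the differences were -3.72, -2.49 and -1.75 against CL, with adjusted p-values of 0.00182, 0.00182 and 0.00296. Against RG they were -0.23 (0.819), -0.32 (0.566) and -0.40 (0.338), so for these 3 genes the difference from the mean of both groups came mostly from CL. For Gnao1 (-0.86, 0.065), Ampd3 (-0.78, 0.143), Amacr (-0.99, 0.054), Gabpa (-0.72, 0.0564) and Folr2 (-1.02, 0.0852) the difference from RG did not pass.

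Gnao1 and Cenpa kept these calls without each RS, CL and RG array in turn, and Gabpa lost its call only without RS3 (0.0629). The other 6 lost theirs without at least 4 of those arrays each. All 9 calls were lost with a replicate block, with array weights and with only the groups compared. Gnao1 stood at 4.96 and 4.73 in RS against 7.20, 7.03 and 6.89 in BAT, with means of 6.75 in CL, 5.71 in RG and 4.54 in WAT.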

How the results depend on the processing

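For RS against BAT, 925 probe sets were called, and the count was 821 with array medians set to 0, 1121 after quantile normalization and 927 with a trend and robust prior. It was 452 among probe sets with a mean over 5, 60 with only the groups compared, 128 with array weights and 496 without RS3 and WAT4 together. Leaving out 1 array gave 370 (without RS3) to 894 (without RS4). For RS against CL and RG, 140 were called, 69 with a mean over 5, 2 with only the groups compared, 2 with array weights and 27 to 198 leaving out 1 array. Whether the replicate numbers in the titles pair the arrays is not stated in the labels. After group means were removed, 24 same-numbered pairs correlated between -0.881 and -0.0498. Removing the means of such small groups shapes these values and makes RS3 and RS4 mirror images, so the correlations cannot decide the question. With the number as a block, the counts were 72 and 4.

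Of 110 named genes called in RS against BAT, 37 kept their calls without each RS and BAT array in turn, 60 lost them without RS3, 74 with only the groups compared, 68 with array weights and 79 with the block. Of the 37, Cks1b, Dapk1, Rnf122, Esrrb, Ppargc1b, Dpt, Itpr2, Il6, Igf1 and Plin3 lost theirs with only the groups compared. With only the groups compared, array weights and the block, the thermogenic core held 9, 9 and 8 calls and the white-selective list 0, 1 and 0, and the TCA cycle, mitochondrial ribosome and Hox lists held 0 in each. Of the 12 largest decreases 11 kept their calls under every alternative in which they were tested, Pitpnc1 being the exception, and of the 12 largest increases 4 (Cmklr1, Hvcn1, Bmp2 and Slc2a13). No named difference that passed the test changed sign. The lists count few calls where most members lie near the array medians, as in the Hox, beige-selective and proliferation lists.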

Other observations

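The genes below rank next in size and were described after their values were seen. Among the decreases, Coq8a, a kinase-like protein of coenzyme Q synthesis, fell by 2.15 log2 units relative to BAT, and Ciapin1, of iron-sulphur cluster assembly, fell by 2.17. Atp1b1, the beta subunit of the sodium pump, fell by 2.34, while Gnao1 fell by 2.19 and Ampd3 fell by 1.98. Atp1b1, Ciapin1, Gnao1 and Ampd3 kept their calls without each array in turn, and Coq8a lost its call without RS4 (adjusted p = 0.0849). Among the increases, Cks1b was higher by 1.87 log2 units, Dapk1, a death-associated protein kinase, by 1.86, Dram1, a lysosomal membrane protein, by 1.82, Ctso, a lysosomal cysteine protease, by 1.83, and Podn, a matrix proteoglycan, by 1.82. These 5 kept their calls without each array in turn, and Cks1b and Dapk1 lost theirs with only the groups compared. Actb, cytoplasmic actin, stood at 8.46 in RS3 and 6.78 in RS4 against 4.55, 5.46 and 6.48 in BAT (adjusted p = 0.0302, lost without RS3 at 0.23 and without BAT1 or BAT3).

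Of 25 interferon-stimulated genes, Gbp2, a guanylate-binding protein, was higher by 1.26 log2 units (adjusted p = 0.0137, and 0.119 without RS3), as was the chemokine Cxcl10 by 0.98 (0.0415, lost without any 1 of the 5 arrays). Xbp1, a transcription factor of the unfolded protein response, rose by 0.91 (adjusted p = 0.0247, lost without RS3 at 0.16 and without BAT1 or BAT3), and it was the 1 gene called of 24 in its list, with 1.33% of all probe sets higher. Of 27 collagen and matrix genes 1 rose, Lox, which cross-links collagen, by 1.47 (adjusted p = 0.0386), again with 1.33% of all probe sets higher. Lox stood at 5.95 in RS3 and 4.63 in RS4 against 3.72 to 3.98 in BAT, and its call was lost without RS3 or any BAT array. Probe sets of olfactory and vomeronasal receptors numbered 1354, with a median difference of -0.18. Of them 48 were lower and 12 higher in RS, against 2.34% lower and 1.33% higher over all probe sets. After quantile normalization 27 were lower and 24 higher, and the median was -0.06.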
